A study of Homo sapiens with 6 samples.

Results

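The SLC25 genes encode the largest family of solute carriers of the inner mitochondrial membrane. They were chosen here by symbol, as the genes of the deposited table named SLC25A followed by a number. The rule found 44 genes among the 22258 gene symbols of the table. SW480, a human colon cancer cell line, was measured as 3 ALDH1B1 KD samples, in which the mitochondrial aldehyde dehydrogenase ALDH1B1 was knocked down, and 3 control samples, titled SCR and given as WT. The labels number the samples of each group 4, 5 and 6 and list no treatment for either group. How the knockdown was made, and whether each group is a single clone, is not given in the sources used here. Cells were detached with trypsin and total RNA was sequenced from strand-specific libraries. Whether the replicates were grown as separate cultures is not stated, so a p-value here covers sample-to-sample spread alone, and part of that may be technical.

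The inner mitochondrial membrane is closed to most solutes, and SLC25 carriers exchange metabolites across it between the cytosol and the matrix. Each carrier is built of repeated pairs of membrane helices around a single binding site, which opens to one side of the membrane at a time. Through them ADP and phosphate enter and ATP leaves, citrate leaves for lipid synthesis, and amino acids, cofactors, nucleotides and iron reach the matrix. The ADP/ATP carriers and the phosphate carrier together feed the ATP synthase.

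The samples had a depth of about 20330000 to 28550000 reads, estimated from the value of 1 read. RPM scales the reads of a gene to a common depth of 1000000 reads. ALDH1B1, the targeted gene, had 19.99, 20.4 and 23.2 RPM in KD samples 4, 5 and 6, against 34.1, 39.6 and 36.7 RPM in SCR samples 4, 5 and 6. It was lower in every KD sample than in any SCR sample and averaged 21.2 ± 1.74 RPM in KD and 36.8 ± 2.76 RPM in SCR (SD, n = 3 each), so that the KD mean was 57.6% of the SCR mean. The log2 fold change came to -0.80 (SE 0.0925, limma adjusted p = 2.45e-07), and an exact two-sided permutation test gave p = 0.1, the smallest p that 3 against 3 samples allow. Of 10 epithelial markers, 9 were in the table and 8 were tested, with a sum of 5854 to 6167 RPM in KD and 5444 to 5703 RPM in SCR. KRT8, KRT18 and KRT19 carried most of it, while EPCAM, CDH1, VIL1 and ELF3 rose and CDX2 fell. Markers of fibroblasts, leukocytes, endothelium and erythroid cells summed to at most 6.92 RPM per list in any sample. The table held 2 of 6, 4 of 6, 1 of 4 and 3 of 5 of these markers, in that order. CD68, a leukocyte marker, fell from 1.17 RPM in SCR to 0.311 RPM in KD, a log2 fold change of -1.93. The part of such cells in the results was not tested. SCR sample 6 lay apart from the other controls, and it was the lowest of the 3 SCR samples for 31 of the 40 SLC25A genes tested and for 69.4% of all genes tested. In bulk RNA, fewer transcripts per cell and fewer cells that make them cannot be told apart.

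Of the 44 SLC25A genes, 40 averaged 0.732 RPM or more over the 6 samples and were tested, among 15341 genes that passed this filter. By limma at an adjusted p under 0.05, 10 fell and 6 rose in the KD samples, and 24 did not pass. The 16 called are 40% of those tested, near the 42.1% called among all genes. The 6 rises are 15% (22.7% of all genes rose), and the 10 falls are 25% (19.4% of all genes fell). The median log2 fold change of the 40 was 0.01, against a median of 0.00 over all genes tested. KD and SCR values did not overlap for 18 of the 40 (45%, against 51.2% of all genes), and all 16 called genes were among those 18. When the depth was taken as the total of tested genes outside the mitochondrial genome, 12 of the 40 rose and 10 fell (30% and 25%), against 29.4% and 18.6% of all genes under the same scaling. The 22 called are then 55% of the family, against 48.1% of all genes. Falls lay among carriers of ADP/ATP, phosphate, dicarboxylates, amino acids, cofactors and pyrimidine nucleotides. Rises lay among carriers of cofactors and pyrimidine nucleotides, relatives of the uncoupling proteins, and carriers whose cargo is less settled.

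**Figure D1:**
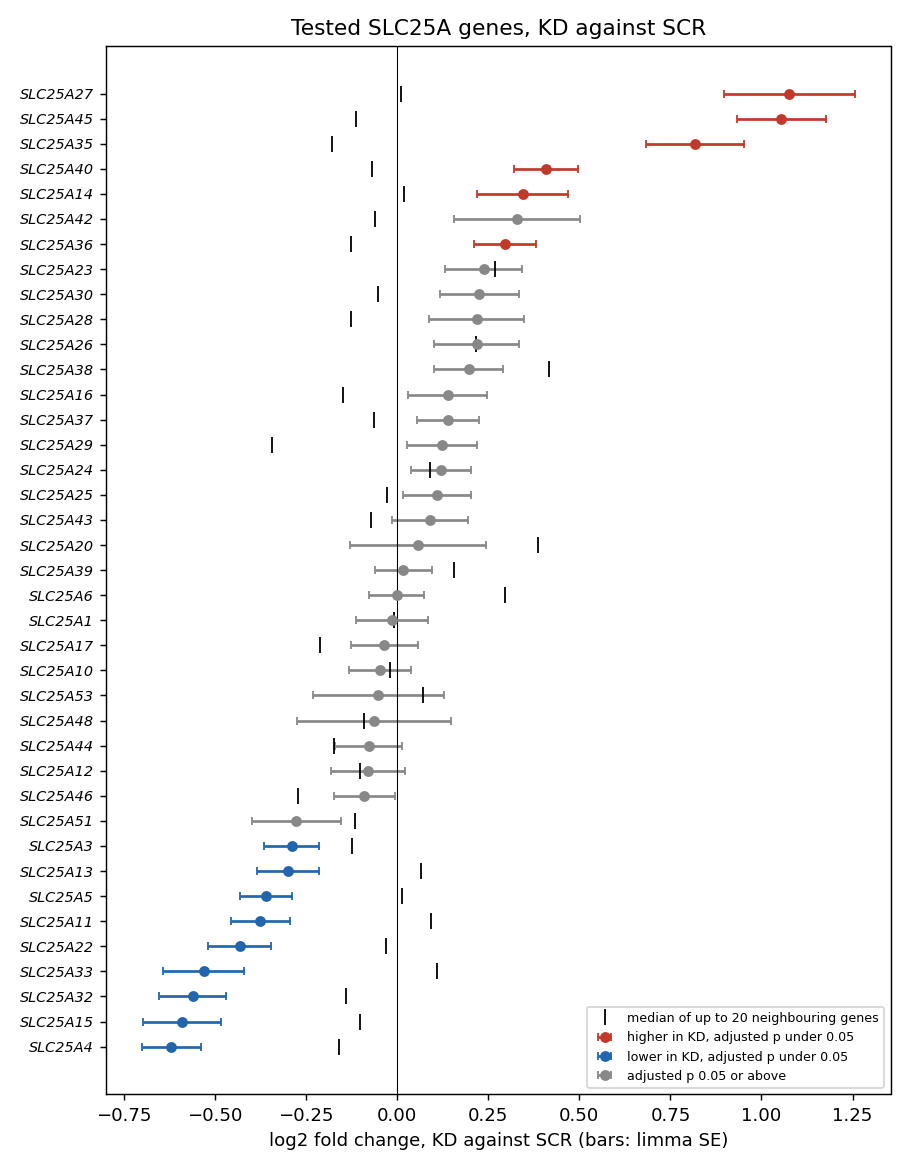
Log2 fold change (x axis, KD against SCR) of the tested SLC25A genes named here, ordered by size, with limma's SE as bars. Red points rose and blue points fell at an adjusted p under 0.05, grey points did not pass, and black ticks give the median log2 fold change of up to 20 neighbouring genes. The values run between -0.62 (SLC25A4) and 1.08 (SLC25A27).

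The ADP/ATP carriers trade matrix ATP for cytosolic ADP, and the genes SLC25A4, SLC25A5 and SLC25A6 encode the isoforms ANT1, ANT2 and ANT3. SLC25A4 and SLC25A5 fell in the KD samples, while SLC25A6 did not pass the test. The 250 bases upstream of the RefSeq start of each (GRCh38.p14) are shown because these close relatives differed in their calls. They lie at chr4:185143016-185143265, plus strand, at chrX:119468194-119468443, plus strand, and at chrX:1392114-1392363, minus strand. Capitals mark matches on either strand to the TATA box letters TATAA, the CCAAT box, the E-box CACGTG, the GC box GGGCGG, the ETS motif CCGGAAG and the NRF1 motif.
SLC25A4: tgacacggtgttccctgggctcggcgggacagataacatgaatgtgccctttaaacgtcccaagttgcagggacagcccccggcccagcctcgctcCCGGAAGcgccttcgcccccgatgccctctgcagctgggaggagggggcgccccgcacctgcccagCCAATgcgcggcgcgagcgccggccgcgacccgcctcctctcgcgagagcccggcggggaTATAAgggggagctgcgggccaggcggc
SLC25A5: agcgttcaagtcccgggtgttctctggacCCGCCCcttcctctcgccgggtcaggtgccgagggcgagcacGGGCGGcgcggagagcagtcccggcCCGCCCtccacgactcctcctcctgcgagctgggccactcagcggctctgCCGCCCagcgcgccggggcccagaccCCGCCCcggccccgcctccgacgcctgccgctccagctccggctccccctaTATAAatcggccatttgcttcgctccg
SLC25A6: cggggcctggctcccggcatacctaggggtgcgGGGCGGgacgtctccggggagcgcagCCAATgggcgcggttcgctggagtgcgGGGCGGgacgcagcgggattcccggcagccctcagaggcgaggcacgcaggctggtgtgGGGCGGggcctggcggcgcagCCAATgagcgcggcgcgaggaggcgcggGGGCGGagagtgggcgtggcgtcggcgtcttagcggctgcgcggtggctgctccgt
The letters TATAA occur in the SLC25A4 and SLC25A5 windows, beginning 28 and 27 bases before the start, and not in the SLC25A6 window. They occur in 18.9% of 34961 upstream windows of all genes. GGGCGG, found in 42.7% of all windows, occurs 5 times in the SLC25A5 window, 4 times in that of SLC25A6 and 0 times in that of SLC25A4. CCAAT (31.97% of all windows) occurs once in the SLC25A4 window and 2 times in that of SLC25A6. CCGGAAG (8.52% of all windows) occurs once in the SLC25A4 window, and the NRF1 motif (5.09% of all windows) in none of the 3. Over the whole family, 6 of 47 windows held TATAA and 32 held GGGCGG. Of genes with a window, TATAA was in 2 of 8 that fell, which are SLC25A4 and SLC25A5. It was in 0 of 5 that rose and 2 of 21 that did not pass. A match describes the letters and is not evidence of a factor's binding.

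SLC25A4, the ANT isoform typical of heart and muscle (chromosome 4, 186064395 to 186071537, in coordinates of the deposited table, which names no build), had 33.1, 33.2 and 33.1 RPM in KD samples 4, 5 and 6, against 50.03, 52.97 and 49.8 RPM in SCR samples 4, 5 and 6. The KD values were nearly equal and lay below every SCR value. They averaged 33.1 ± 0.0298 RPM in KD and 50.9 ± 1.77 RPM in SCR (SD, n = 3 each), giving a log2 fold change of -0.62 (SE 0.0802, limma adjusted p = 1.21e-06), the largest fall among the SLC25A genes. SLC25A5, the isoform of dividing cells (chromosome X, 118602363 to 118605283), had 285, 283 and 307 RPM in KD samples 4, 5 and 6, against 378, 378 and 367 RPM in SCR samples 4, 5 and 6, again with no overlap between the groups. Its log2 fold change of -0.36 (SE 0.0723, limma adjusted p = 2.91e-04) rests on about 5760 to 10797 reads per sample. SLC25A6, the isoform found in most tissues, had 293, 289.7 and 304 RPM in KD, against 303, 313 and 273 RPM in SCR. Its groups overlapped, with a log2 fold change of -0.00 (SE 0.0747, limma adjusted p = 0.989), and its mean in KD was 99.8% of that in SCR. How reads shared by these similar isoforms were assigned is not given. The 13 tested genes nearest to SLC25A6, at the end of chromosome X, had a median log2 fold change of 0.30. The sum of the ADP/ATP carrier transcripts averaged 621 ± 21.03 RPM in KD and 722 ± 27.8 RPM in SCR (SD, n = 3 each), with no overlap between groups.

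**Figure D2:**
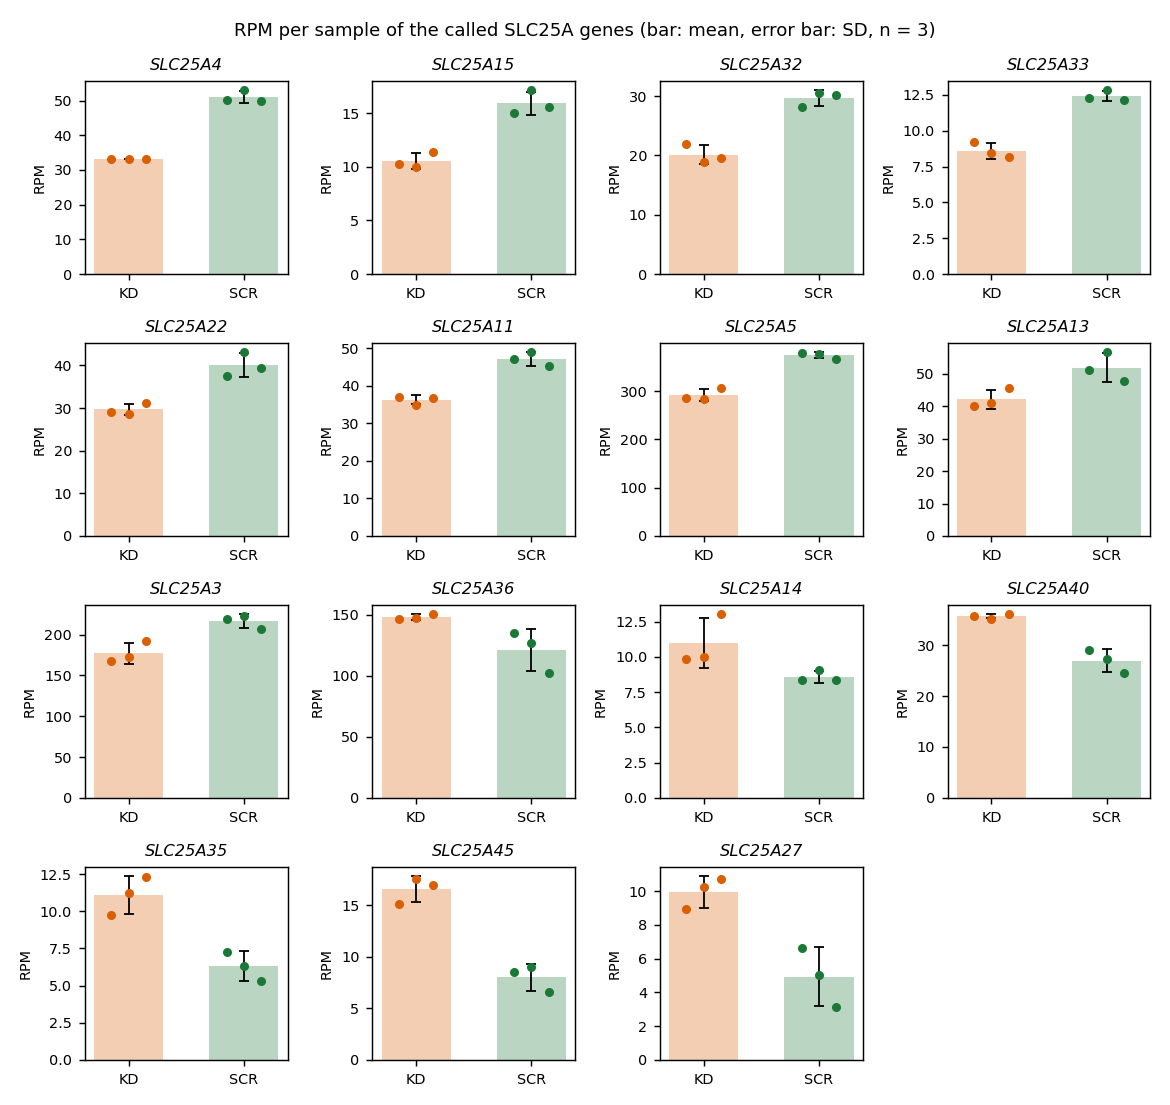
RPM (y axis, starting at 0) per sample of the called SLC25A genes named here, in KD (orange) and SCR (green). Points are samples, bars are means and error bars are SD with n = 3. KD and SCR points do not overlap in any panel.

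SLC25A3, the phosphate carrier, supplies the ATP synthase with phosphate and also carries copper. It had 167, 173 and 192 RPM in KD samples 4, 5 and 6, against 219.7, 223 and 207 RPM in SCR samples 4, 5 and 6, so that its highest KD value lay below its lowest SCR value. It fell, with a log2 fold change of -0.29 (SE 0.0754, limma adjusted p = 0.00327). The calcium-regulated carriers of ATP-Mg for phosphate, SLC25A23, SLC25A24 and SLC25A25, did not pass the test. In the 16 alternative fits described below, SLC25A23 passed in 4 and SLC25A24 in 2. SLC25A23 had 35.5, 37.04 and 44.03 RPM in KD, against 33.7, 38.2 and 27.5 RPM in SCR, a log2 fold change of 0.24 (limma adjusted p = 0.0725), and 9 of its 20 neighbouring genes rose. SLC25A24 and SLC25A25 had log2 fold changes of 0.12 (limma adjusted p = 0.252) and 0.11 (limma adjusted p = 0.354), and KD and SCR values overlapped in both.

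Among the carriers of dicarboxylates, citrate and oxoglutarate, SLC25A11 was the one of 3 tested that passed, and it fell. This is 33.3%, against 19.4% of all genes that fell and 42.1% called in either direction. SLC25A11, the malate-oxoglutarate carrier of the malate-aspartate shuttle (chromosome 17, 4840425 to 4843547), had 37.1, 34.9 and 36.8 RPM in KD samples 4, 5 and 6, against 47.02, 48.96 and 45.3 RPM in SCR samples 4, 5 and 6. No KD value reached an SCR value, with a log2 fold change of -0.38 (SE 0.0812, limma adjusted p = 6.12e-04). The gene overlaps RNF167 on the opposite strand, which had a log2 fold change of -0.33 and also fell, and whether the counting used strand is not stated. SLC25A1, the citrate carrier that exports citrate for fatty acid synthesis, had 30.9, 33.99 and 36.2 RPM in KD, against 35.8, 38.2 and 28.7 RPM in SCR, and its groups overlapped, with a log2 fold change of -0.01 (limma adjusted p = 0.922). SLC25A10, the dicarboxylate carrier, had 44.97, 42.4 and 43.2 RPM in KD, against 46.5, 48.2 and 40.5 RPM in SCR, likewise with overlap, and a log2 fold change of -0.05 (limma adjusted p = 0.680). It overlaps MRPL12 on the same strand, which averaged 62.9 RPM over all samples and fell, with a log2 fold change of -0.25.

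Carriers of amino acids fell or did not pass, with 3 of 7 tested that fell and 0 that rose. The 3 that fell are 42.9% of those tested, against 19.4% of all genes that fell and 42.1% called in either direction. No test of this group was made. SLC25A15, the ornithine carrier of the urea cycle (chromosome 13, 41363548 to 41384248), had 10.3, 10.02 and 11.4 RPM in KD samples 4, 5 and 6, against 15.04, 17.2 and 15.6 RPM in SCR samples 4, 5 and 6. The groups stood apart, with 10.6 ± 0.744 RPM in KD and 15.9 ± 1.10 RPM in SCR (SD, n = 3 each), giving a log2 fold change of -0.59 (SE 0.107, limma adjusted p = 9.41e-05). SLC25A22, a glutamate carrier (chromosome 11, 790475 to 798317), had 29.2, 28.7 and 31.1 RPM in KD samples 4, 5 and 6, against 37.5, 43.1 and 39.5 RPM in SCR samples 4, 5 and 6, with every KD value below every SCR value. Its change was a log2 fold change of -0.43 (SE 0.0862, limma adjusted p = 2.75e-04). SLC25A13, known as citrin, is the aspartate-glutamate carrier of the malate-aspartate shuttle. It had 39.99, 40.97 and 45.5 RPM in KD samples 4, 5 and 6, against 51.3, 56.7 and 47.8 RPM in SCR samples 4, 5 and 6, a log2 fold change of -0.30 (SE 0.0860, limma adjusted p = 0.00670). This call was lost without SCR sample 5 (adjusted p = 0.0564) and without a variance trend (0.0521). SLC25A12, the other aspartate-glutamate carrier, known as aralar, had 14.8, 14.7 and 16.7 RPM in KD, against 15.5, 17.1 and 16.2 RPM in SCR, with overlap and a log2 fold change of -0.08 (limma adjusted p = 0.549). SLC25A38, which brings glycine into mitochondria for heme synthesis, had 20.7, 22.1 and 21.6 RPM in KD, against 18.7, 20.3 and 17.3 RPM in SCR. Its KD values all lay above its SCR values, but it did not pass, with 0.20 (limma adjusted p = 0.103) on the log2 scale, and 9 of its 20 neighbours on chromosome 3 rose, with a median of 0.42. SLC25A29, a carrier of basic amino acids, and SLC25A44, of branched-chain amino acids, had log2 fold changes of 0.12 (limma adjusted p = 0.317) and -0.08 (limma adjusted p = 0.516).

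The carriers of pyrimidine nucleotides, SLC25A33 and SLC25A36, went opposite ways. Both bring nucleotides into the matrix for mitochondrial DNA and RNA. Their upstream windows (GRCh38.p14) are given for comparison, with capitals as above. They lie at chr1:9539215-9539464, plus strand, and at chr3:140941586-140941835, plus strand.
SLC25A33: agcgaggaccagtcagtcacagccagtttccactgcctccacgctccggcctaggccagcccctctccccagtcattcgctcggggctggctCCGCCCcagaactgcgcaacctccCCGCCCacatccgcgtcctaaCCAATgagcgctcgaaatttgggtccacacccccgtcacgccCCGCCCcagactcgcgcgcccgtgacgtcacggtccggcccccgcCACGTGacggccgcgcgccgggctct
SLC25A36: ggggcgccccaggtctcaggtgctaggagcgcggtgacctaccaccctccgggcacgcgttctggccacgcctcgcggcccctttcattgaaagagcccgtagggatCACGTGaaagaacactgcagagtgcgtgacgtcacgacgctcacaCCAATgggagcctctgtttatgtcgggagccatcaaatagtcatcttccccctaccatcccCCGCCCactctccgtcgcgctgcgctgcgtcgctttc
Each window holds CACGTG once, as do 6.35% of all windows, and CCAAT once. GGGCGG occurs 3 times in the SLC25A33 window and once in that of SLC25A36. SLC25A33, described as induced by insulin and IGF1 signalling, had 9.23, 8.42 and 8.17 RPM in KD samples 4, 5 and 6, against 12.3, 12.8 and 12.2 RPM in SCR samples 4, 5 and 6. The KD values lay below all SCR values, a log2 fold change of -0.53 (SE 0.112, limma adjusted p = 4.67e-04). SLC25A36 had 146, 147 and 151 RPM in KD samples 4, 5 and 6, against 135, 127 and 102 RPM in SCR samples 4, 5 and 6, with every KD value above every SCR value and a log2 fold change of 0.30 (SE 0.0861, limma adjusted p = 0.00740). SCR sample 6 was the lowest of these, and without it the log2 fold change of SLC25A36 was 0.18 (adjusted p = 0.0363).

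Among the tested carriers of cofactors and vitamins, SLC25A32 fell and SLC25A40 rose. SLC25A32, which carries folate and FAD (chromosome 8, 104410863 to 104427418), had 21.9, 18.9 and 19.6 RPM in KD samples 4, 5 and 6, against 28.1, 30.6 and 30.2 RPM in SCR samples 4, 5 and 6, without overlap between groups. Its log2 fold change of -0.56 (SE 0.0923, limma adjusted p = 3.04e-05) was the third largest fall of the family. The neighbour DCAF13, which overlaps it on the opposite strand, had a log2 fold change of -0.37 and fell too. SLC25A40, a carrier needed for glutathione in mitochondria (chromosome 7, 87462883 to 87505673), had 35.7, 35.2 and 36.04 RPM in KD samples 4, 5 and 6, against 29.04, 27.2 and 24.5 RPM in SCR samples 4, 5 and 6. Here every KD value lay above every SCR value, a log2 fold change of 0.41 (SE 0.0881, limma adjusted p = 5.86e-04). Its close relative SLC25A39, which serves the same import, had 108, 108 and 119 RPM in KD, against 115, 117 and 99.8 RPM in SCR, with overlap and a log2 fold change of 0.02 (limma adjusted p = 0.879). The NAD carrier SLC25A51 had 10.02, 10.1 and 7.99 RPM in KD, against 12.4, 11.1 and 10.4 RPM in SCR. Its KD values all lay below its SCR values, yet the log2 fold change of -0.28 (limma adjusted p = 0.0701) did not pass, except under quantile normalization or without SCR sample 6. SLC25A26, which imports the methyl donor S-adenosylmethionine, SLC25A16 and SLC25A42, both linked to coenzyme A, and the peroxisomal SLC25A17 had log2 fold changes between -0.03 and 0.33 and did not pass.

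The relatives of the uncoupling proteins, SLC25A14, SLC25A27 and SLC25A30, were named for their likeness to UCP1, which lets protons back into the matrix to make heat. Of these 3, 2 rose (66.7%, against 22.7% of all genes). SLC25A27, called UCP4 and best known from brain (chromosome 6, 46620678 to 46645931), had 8.93, 10.2 and 10.7 RPM in KD samples 4, 5 and 6, against 6.61, 5.03 and 3.14 RPM in SCR samples 4, 5 and 6. The lowest KD value exceeded the highest SCR value, although SCR spread widely. It averaged 9.96 ± 0.933 RPM in KD and 4.93 ± 1.74 RPM in SCR (SD, n = 3 each), giving a log2 fold change of 1.08 (SE 0.180, limma adjusted p = 3.66e-05), the largest rise of the family. Over the 16 alternatives its log2 fold change lay between 0.78 and 1.32 and passed in each. SLC25A14, called UCP5, had 9.88, 10.02 and 13.03 RPM in KD samples 4, 5 and 6, against 8.36, 9.06 and 8.33 RPM in SCR samples 4, 5 and 6. This rise was smaller, with a log2 fold change of 0.34 (SE 0.124, limma adjusted p = 0.0280), and it was lost without KD sample 6, with 0.21 (adjusted p = 0.234). It was also lost without SCR sample 4 (0.0647), under quantile normalization (0.128), without a low-value filter (0.0572) and without a variance trend (0.0707). SLC25A30 had 14.3, 12.97 and 15.02 RPM in KD, against 11.3, 13.1 and 11.7 RPM in SCR, with overlap and a log2 fold change of 0.23 (limma adjusted p = 0.0968).

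Mitoferrins bring iron into mitochondria for heme and iron-sulfur clusters, and neither passed, though SLC25A37 did in 2 of 16 alternatives. SLC25A37, mitoferrin 1, the form of developing red cells, had 57.6, 63.4 and 65.8 RPM in KD, against 60.1, 59.3 and 50.6 RPM in SCR. SLC25A28, mitoferrin 2, had 12.2, 13.9 and 15.5 RPM in KD, against 13.01, 13.7 and 9.35 RPM in SCR. KD and SCR values overlapped for both, and the log2 fold changes were 0.14 (limma adjusted p = 0.196) and 0.22 (limma adjusted p = 0.181). The carnitine-acylcarnitine carrier SLC25A20, through which fatty acids reach the matrix, had 3.51, 2.70 and 2.98 RPM in KD, against 2.52, 2.94 and 3.40 RPM in SCR. It was low in every sample and its groups overlapped, with 0.06 (limma adjusted p = 0.831) on the log2 scale. Of its 20 neighbours on the short arm of chromosome 3, 13 rose and 0 fell, with a median of 0.39.

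Among carriers whose cargo is less settled, SLC25A35 and SLC25A45 rose. SLC25A45 (chromosome 11, 65142663 to 65151173) had 15.1, 17.5 and 17.01 RPM in KD samples 4, 5 and 6, against 8.57, 8.96 and 6.54 RPM in SCR samples 4, 5 and 6. The groups were far apart, with 16.5 ± 1.28 RPM in KD and 8.03 ± 1.30 RPM in SCR (SD, n = 3 each), giving a log2 fold change of 1.05 (SE 0.123, limma adjusted p = 2.55e-07), the smallest adjusted p among the SLC25A genes. SLC25A35 (chromosome 17, 8191081 to 8198662), which has no agreed substrate, had 9.73, 11.2 and 12.3 RPM in KD samples 4, 5 and 6, against 7.28, 6.34 and 5.29 RPM in SCR samples 4, 5 and 6. Again KD lay above SCR in every sample, a log2 fold change of 0.82 (SE 0.135, limma adjusted p = 3.01e-05). RANGRF overlaps SLC25A35 on the opposite strand and had a log2 fold change of 0.05, which did not pass. SLC25A46, an outer membrane protein tied to mitochondrial shape and to optic atrophy, had 53.2, 45.4 and 45.4 RPM in KD, against 51.4, 52.8 and 48.8 RPM in SCR, with overlap and a log2 fold change of -0.09 (limma adjusted p = 0.411). SLC25A43, SLC25A48 and SLC25A53 had log2 fold changes of 0.09 (limma adjusted p = 0.514), -0.06 (limma adjusted p = 0.831) and -0.05 (limma adjusted p = 0.841).

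The remaining 4 SLC25A genes lay below the filter and were not tested. SLC25A18, a glutamate carrier related to SLC25A22, had 0.617, 0.540 and 0.420 RPM in KD, against 0.770, 0.499 and 0.467 RPM in SCR. SLC25A34 had 0.475, 0.540 and 0.535 RPM in KD, against 0.245, 0.427 and 0.0850 RPM in SCR. SLC25A41, a short relative of the ATP-Mg carriers, and SLC25A21, the oxodicarboxylate carrier, stayed at or under 0.239 RPM in every sample. SLC25A21 was listed at 0 in SCR samples 4 and 6. These values amount to at most 22 reads per sample and allow no statement about change. The symbols SLC25A2, SLC25A31, SLC25A47 and SLC25A52 were not among those the rule found in the deposited table, so these genes were not analysed here.

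Position along the chromosome was examined beside each called gene, as the median log2 fold change of the 10 tested genes on either side. For the 6 that rose these medians lay between -0.18 and 0.02, and for those named here that fell between -0.16 and 0.11. SLC25A27, SLC25A45 and SLC25A35 rose among neighbours with medians of 0.01, -0.11 and -0.18. The highest neighbour medians of the family, 0.42 and 0.39, belonged to SLC25A38 and SLC25A20 on chromosome 3, which did not pass.

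Levels were compared between genes after division by the length of the principal transcript in GENCODE 29, since longer transcripts give more reads. SLC25A5 was highest, with 229 ± 10.4 RPM per kb in KD and 294 ± 4.82 in SCR (SD, n = 3 each). SLC25A6 followed with 143 ± 3.77 RPM per kb in KD and 144 ± 10.01 in SCR, and SLC25A3 with 106 ± 7.70 RPM per kb in KD and 129 ± 5.21 in SCR. In SCR the ranges of SLC25A6 and SLC25A3 overlapped, so their order there is not beyond the spread, while SLC25A5 stood above both. SLC25A39 came next with 69.5 ± 3.86 RPM per kb in KD and 68.8 ± 5.81 in SCR, apart from SLC25A3 above it and SLC25A36 below it. Over the 43 pairs of neighbours in the SCR order of levels, ranges overlapped in 31. SLC25A4 ranked 21 in KD and 14 in SCR. The 5 most abundant genes by RPM held 55.9% ± 0.468 of all SLC25A reads in KD and 57.5% ± 0.49998 in SCR (SD, n = 3 each). The whole family summed to 1806, 1790 and 1907 RPM in KD samples 4, 5 and 6, against 1993, 2033 and 1813 RPM in SCR samples 4, 5 and 6. These sums overlapped, because KD sample 6 exceeded SCR sample 6.

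**Figure D3:**
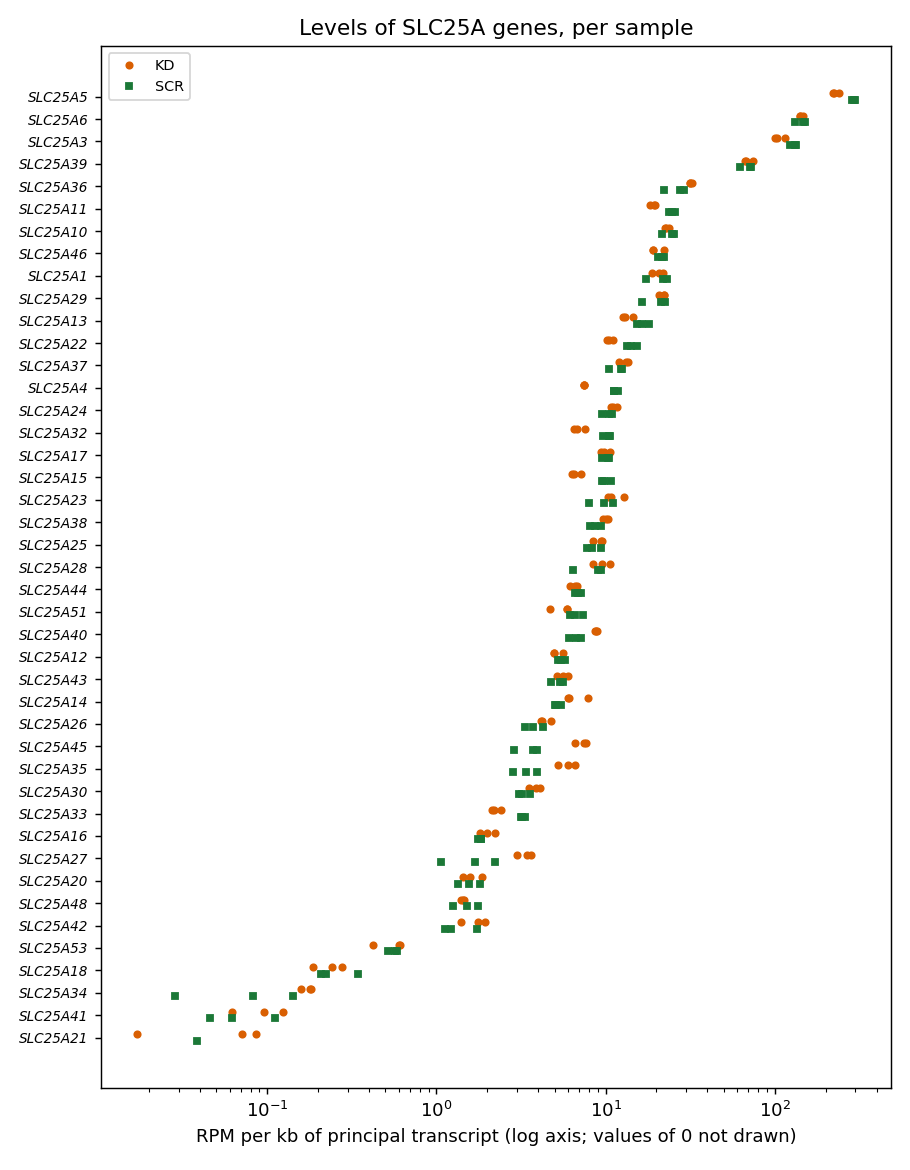
Level of each SLC25A gene named here in RPM per kb of its principal transcript (x axis, log scale) in the 3 KD samples (orange circles) and the 3 SCR samples (green squares), ordered by the SCR mean. SLC25A5 is highest, and the 4 untested genes lie at the bottom. Values of 0 are not drawn.

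Ratios between related carriers within a sample do not depend on the scaling to depth, so 12 such pairs were formed after their values had been seen. The ratio of SLC25A5 to SLC25A6 was 0.974, 0.978 and 1.01 in KD, against 1.25, 1.21 and 1.34 in SCR. Reads of SLC25A5 thus about equalled those of SLC25A6 in each KD sample and exceeded them in each SCR sample, while per kb of transcript SLC25A5 was the higher in both groups. SLC25A4 to SLC25A6 gave 0.113, 0.114 and 0.109 in KD, against 0.165, 0.169 and 0.182 in SCR, a log2 difference of -0.62. For SLC25A4 to SLC25A5 the log2 difference was -0.26, with no overlap. The ratio of SLC25A33 to SLC25A36 was 0.0630, 0.0571 and 0.0543 in KD, against 0.0911, 0.101 and 0.119 in SCR, a log2 difference of -0.83. This is the ratio of the pyrimidine nucleotide carriers, and no KD sample reached an SCR sample. The glutathione pair SLC25A39 to SLC25A40 gave 3.02, 3.08 and 3.30 in KD, against 3.96, 4.30 and 4.07 in SCR, and SLC25A12 to SLC25A13 had a log2 difference of 0.22. The groups stood apart for 9 of 12 pairs and overlapped for 3, the mitoferrins and both pairs of ATP-Mg carriers. Several pairs share a gene, among them the 3 pairs of ADP/ATP carriers, 51.2% of single genes did not overlap either, and no such share was computed for other pairs of genes, so nothing is read from the count. An exact two-sided permutation test gave p = 0.1 for each of the 9, the smallest p that 3 against 3 samples allow, and 0.133 after Benjamini-Hochberg adjustment over the 12 pairs.

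**Figure D4:**
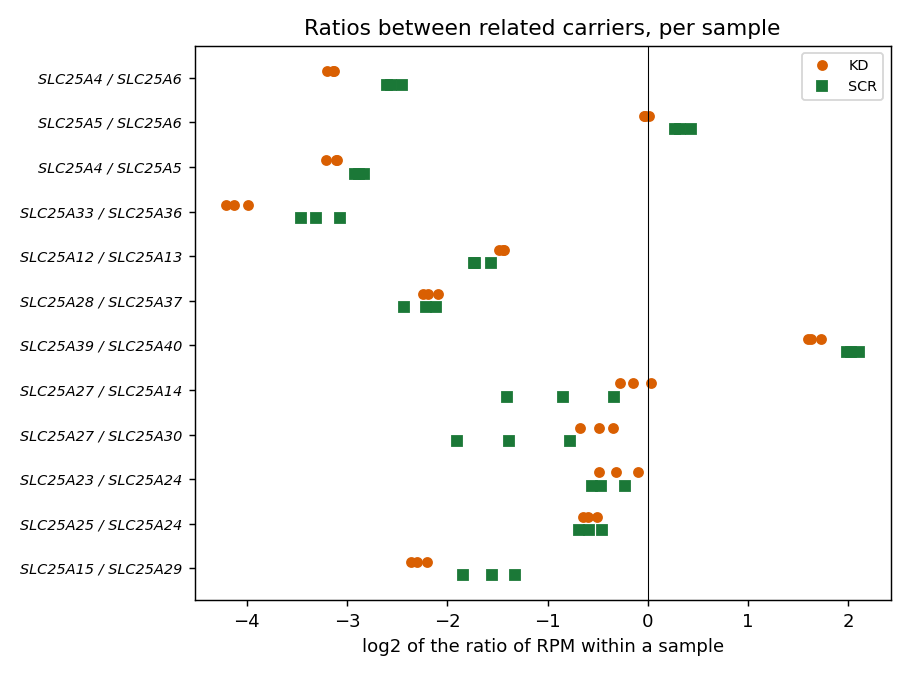
Log2 of the RPM ratio between related carriers within each sample (x axis), for 12 pairs, in KD (orange circles, upper row) and SCR (green squares, lower row). KD and SCR are apart for 9 pairs, among them SLC25A33 to SLC25A36 with a log2 difference of -0.83.

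Genes that work with the carriers were followed through 9 lists, of which 95 of 99 genes were in the table and 90 were tested. Over the lists together 36 fell (40%, against 19.4% of all genes tested) and 16 rose (17.8%, against 22.7%), with a median log2 fold change of -0.14. Without KD sample 5, 21 fell, and over all genes the falls went from 2971 to 2025. Over all genes 2308 fell without SCR sample 4, 2125 without SCR sample 5 and 3740 without SCR sample 6. These lists were put together with earlier results of these data known, and no test of the lists was made.

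Carriers without an SLC25A symbol had 7 of 11 tested that fell (63.6%, against 19.4% of all genes) and 3 that rose (27.3%, against 22.7%). MPC1, a subunit of the mitochondrial pyruvate carrier, averaged 6.60 ± 0.414 RPM in KD and 10.4 ± 0.565 RPM in SCR (SD, n = 3 each), giving a log2 fold change of -0.66 (SE 0.121, limma adjusted p = 1.02e-04). UCP2, an uncoupling protein relative that exports matrix metabolites, averaged 14.9 ± 0.509 RPM in KD and 21.5 ± 1.66 RPM in SCR (SD, n = 3 each) and fell with a log2 fold change of -0.53 (limma adjusted p = 1.09e-04). UCP3, its relative in muscle, and the sideroflexin SFXN5 rose by 0.67 (limma adjusted p = 0.0316) and 0.53 (limma adjusted p = 2.78e-04) on the log2 scale, and the neighbours of SFXN5 had a median of 0.47. The UCP3 call was lost without any single KD sample or without SCR sample 6 (adjusted p up to 0.146), and also under quantile normalization, without a low-value filter and without a variance trend. Without KD sample 5, or without SCR sample 4, 4 of these 11 fell in place of 7.

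Carrier precursors enter through the TOM complex and reach the inner membrane with the small TIM chaperones and the TIM22 complex. Of 13 such genes, 8 fell (61.5%, against 19.4% of all genes) and 1 rose (7.69%, against 22.7%). TIMM8B, a small TIM chaperone, averaged 25.2 ± 3.34 RPM in KD and 34.5 ± 2.97 RPM in SCR (SD, n = 3 each), with a log2 fold change of -0.46 (limma adjusted p = 6.00e-04). TOMM22, a receptor of the TOM complex, and TIMM22, the pore of the inner membrane, fell with log2 fold changes of -0.36 (limma adjusted p = 6.66e-04) and -0.39 (limma adjusted p = 0.00398). AGK, a lipid kinase and part of the TIM22 complex, rose by 0.42 (limma adjusted p = 0.00214), among neighbours with a median of 0.48. The receptor TOMM70, listed under its older symbol TOMM70A, had -0.32 (limma adjusted p = 0.00352). Among the porins of the outer membrane, VDAC2 and VDAC1 fell, with log2 fold changes of -0.43 (limma adjusted p = 7.10e-04) and -0.23 (limma adjusted p = 0.0174), and VDAC3 did not pass. Without KD sample 5 or SCR sample 5, 1 of the porins fell, and the VDAC1 call was also lost without a variance trend and with a replicate block.

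Enzymes of the malate-aspartate and citrate shuttles had 6 of 12 tested that fell and 1 that rose. These are 50% and 8.33%, against 19.4% and 22.7% of all genes. MDH1, the cytosolic malate dehydrogenase, averaged 92.9 ± 14.2 RPM in KD and 60.2 ± 1.41 RPM in SCR (SD, n = 3 each), giving a log2 fold change of 0.62 (SE 0.0888, limma adjusted p = 5.34e-06), among neighbours with a median of 0.40. Citrate synthase CS and mitochondrial aspartate aminotransferase GOT2 fell, with log2 fold changes of -0.33 (limma adjusted p = 0.00132) and -0.28 (limma adjusted p = 0.00511). Without KD sample 5, 2 of these 12 fell, and without SCR sample 5, 3. The GOT2 call was lost without KD sample 5 (adjusted p = 0.0525) and without a variance trend (0.0504).

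Genes of the carnitine shuttle, which works with SLC25A20, had 4 of 6 tested that rose and 0 that fell, and their median log2 fold change was 0.45. The 4 that rose are 66.7%, against 22.7% of all genes. CPT1B, the muscle form of the outer membrane carnitine palmitoyltransferase, averaged 9.13 ± 0.930 RPM in KD and 4.98 ± 1.40 RPM in SCR (SD, n = 3 each), giving a log2 fold change of 0.91 (SE 0.159, limma adjusted p = 6.77e-05). SLC22A5, which takes carnitine up into the cell, rose by 0.66 (limma adjusted p = 6.61e-06), and the acyltransferases CROT and CRAT by 0.53 (limma adjusted p = 0.00113) and 0.37 (limma adjusted p = 0.00303). Leaving out any single sample left 4 that rose. SLC25A20 itself did not pass, as given above.

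Enzymes of ornithine, proline and glutamate, which share substrates with SLC25A15, SLC25A22 and SLC25A13, had 6 of 12 tested that fell and 1 that rose. These are 50% and 8.33%, against 19.4% and 22.7% of all genes. ARG2, the mitochondrial arginase that makes ornithine, averaged 23.6 ± 1.57 RPM in KD and 54.4 ± 3.67 RPM in SCR (SD, n = 3 each), giving a log2 fold change of -1.21 (SE 0.0872, limma adjusted p = 8.12e-11). PRODH, the proline dehydrogenase, rose by 1.03 (limma adjusted p = 0.00141), and the glutamate dehydrogenase GLUD2 fell, with -0.35 (limma adjusted p = 0.0133). PRODH was low, with means of 2.25 RPM in KD and 1.09 RPM in SCR against a filter of 0.732 RPM. The stricter filter at 3.66 RPM left PRODH out. The GLUD2 call was lost without KD sample 5, without SCR sample 5 and without a variance trend, with adjusted p up to 0.130. GLUD2 is a near copy of GLUD1 and may share its reads. Without KD sample 5 or without SCR sample 5, 2 of these 12 fell. The count that rose also depended on the setting. It was 2 of 13 with a filter at 0.492 RPM and 0 of 11 with the stricter filter. With depth taken as the total of tested genes outside the mitochondrial genome, 3 of the 12 rose, where 29.4% of all genes rose.

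Enzymes of heme, iron and iron-sulfur clusters had 2 of 11 that fell (18.2%, against 19.4% of all genes) and 1 that rose (9.09%, against 22.7%). LYRM4, of iron-sulfur cluster assembly, fell with a log2 fold change of -0.42 (limma adjusted p = 0.00162), and PPOX of heme synthesis rose by 0.34 (limma adjusted p = 0.0281), a call lost without KD sample 5, KD sample 6 or SCR sample 6, under quantile normalization (adjusted p = 0.111) and with a replicate block (0.0521). Without SCR sample 6, 4 of the 11 fell. Folate, one-carbon and S-adenosylmethionine enzymes had 4 of 10 that rose (40%, against 22.7% of all genes) and 1 that fell (10%, against 19.4%). Without any single KD sample or without SCR sample 6, 3 of these 10 rose. The same count was found without a variance trend and with a replicate block. AMT, of the glycine cleavage system, averaged 5.02 ± 0.520 RPM in KD and 1.85 ± 0.203 RPM in SCR (SD, n = 3 each), giving a log2 fold change of 1.44 (SE 0.180, limma adjusted p = 7.32e-07), among neighbours with a median of 0.44. MTHFD1, the cytosolic folate enzyme, fell with -0.40 (limma adjusted p = 1.63e-04), and MAT2A, which makes S-adenosylmethionine, rose by 0.37 (limma adjusted p = 2.82e-04), with a neighbour median of 0.42. Of 12 genes for NAD, coenzyme A and thiamine, 4 fell (33.3%, against 19.4% of all genes) and 1 rose (8.33%, against 22.7%). NMNAT3, a mitochondrial NAD-making enzyme, rose by 0.56 (limma adjusted p = 4.92e-04), and the mitochondrial NAD kinase NADK2, the NAD salvage enzyme NAMPT and the pantothenate kinase PANK3 fell, with -0.47 (limma adjusted p = 0.00282), -0.32 (limma adjusted p = 0.00138) and -0.34 (limma adjusted p = 7.44e-04). Without SCR sample 5, 2 of these 12 rose.

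**Figure D5:**
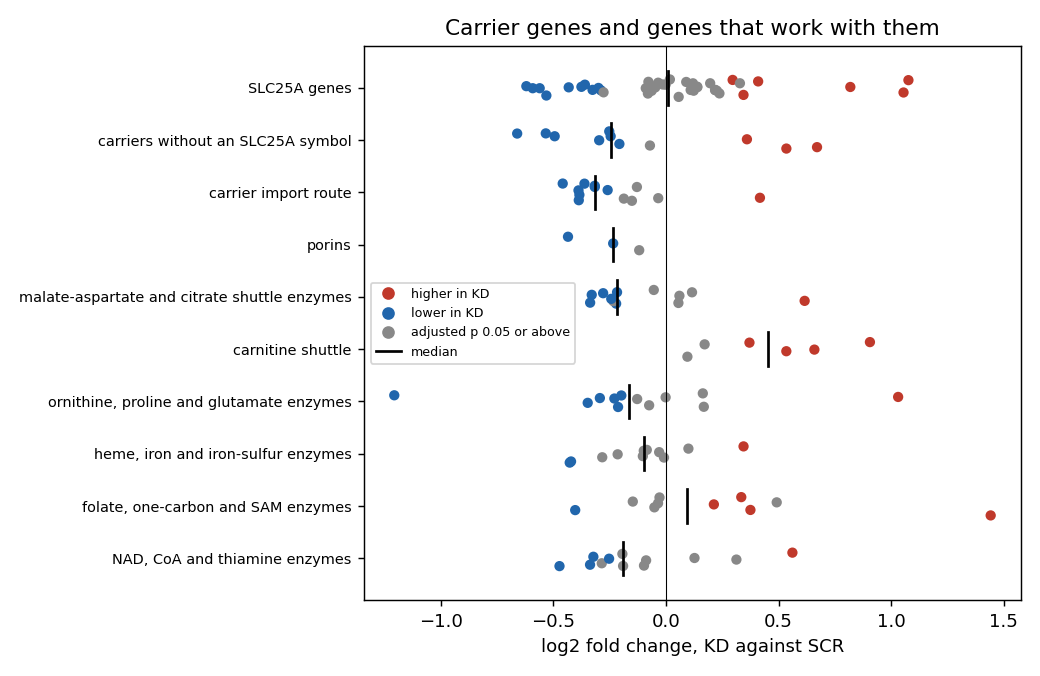
Log2 fold change (x axis, KD against SCR) of the tested SLC25A genes and of each list of genes that work with them (rows). Red points rose, blue points fell, grey points did not pass, and black lines are medians. The carnitine shuttle has the highest median, 0.45, and the carrier import route the lowest, -0.32.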

How the data were processed

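The deposited table gives a log2 value per gene and sample. The authors' labels do not state the scale; every column has its floor at log2 of 1e-04, so the deposited log2 values were read as log2 of RPM plus that offset. The submitters' processing notes name Partek, Bowtie and hg38, but the largest end on chromosome 1 is 249214146, beyond 248937043 in GENCODE 29, so positions are the table's own. Nothing used here gives the gene models, the counting or any filter. The log was undone to give RPM. Low values were multiples of a step taken as 1 read, from which depth was estimated. In each sample 77.7% to 80.1% of these came within 0.02 of a whole read, so no count model was run.

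The 24549 lines were reduced to 22258 symbols, since 1192 symbols at several loci had identical values. Genes averaging 0.732 RPM or more (10 reads in the sample with the fewest reads in listed genes, scaled to those reads and not to depth, which makes 14.9 reads there on the RPM scale used here) were tested with limma 3.58.1 (R 4.3.3), lmFit and eBayes with a trend, KD against SCR, with no covariates, two-sided, and Benjamini-Hochberg adjustment over all 15341. The fit was also run on simulated data. There the spreads were shuffled across genes and few genes were changed, unlike these data, so nothing is read from that run. Upstream windows came from RefSeq (GRCh38.p14), matched for 37 of 44 genes. Of 99 list genes, 92 matched by symbol and 3 by an older symbol. Named were genes past the test with an absolute log2 fold change of at least 0.5, the ADP/ATP carriers, members of each role group with the smallest adjusted p, and up to 4 per list. Members and lists were chosen with earlier results of these data known. Some members and list genes are counted but not reported here by name. Figures used matplotlib 3.10.9.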

Additional observations from a re-analysis of the deposited data

How the results depend on the processing

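The 16 alternatives changed the offset, the low-value filter, the scaling and the variance prior, added a replicate block, or left out each sample in turn. All 16 called SLC25A genes kept their direction in these 16, and 12 of them passed in every one. A filter at 0.492 RPM, which is 10 reads at the depth of the sample with the fewest reads in listed genes, was added after seeing the data and left 6 SLC25A genes that rose and 10 that fell of 41 tested. SLC25A13, SLC25A14 and SLC25A36 were among those that lost their call in at least 1. SLC25A36 lost it without a variance trend (adjusted p = 0.0891). The count of SLC25A genes that rose was 12 when scaled to the nuclear total (all genes 4517), 5 to 8 when a sample was left out, and the count that fell was 9 to 11. Listed pathway genes that fell numbered 23 without a variance trend and 21 to 42 when a sample was left out. Over all genes, 2885 to 3436 rose and 2025 to 3740 fell when a sample was left out, and ALDH1B1 had log2 fold changes of -0.86 to -0.74.

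Some genes that did not pass changed sign near 0. Scaled to the nuclear total, SLC25A1, SLC25A6, SLC25A10, SLC25A17 and SLC25A53 had log2 fold changes of 0.0396, 0.0522, 0.00618, 0.0191 and 0.00254. Under quantile normalization SLC25A1, SLC25A6 and SLC25A20 had 0.0012, 0.0891 and -0.166. With a sample left out the ranges were -0.136 to 0.0699 for SLC25A1, -0.0590 to 0.0387 for SLC25A6, -0.12 to 0.0024 for SLC25A10 and -0.0866 to 0.0059 for SLC25A17. They were -0.0528 to 0.163 for SLC25A20, -0.0143 to 0.215 for SLC25A29, -0.0545 to 0.0591 for SLC25A39, -0.195 to 0.0561 for SLC25A48 and -0.145 to 0.123 for SLC25A53. The cause was not tested. SLC25A genes that did not pass were past the threshold in 15 of their alternative fits. These were 4 fits of SLC25A23 and 2 each of SLC25A24, SLC25A37, SLC25A38 and SLC25A51. SLC25A26, SLC25A30 and SLC25A42 had 1 each.

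With the replicate block 6 SLC25A genes rose and 10 fell, and over all genes 3150 rose and 2296 fell. Among carriers without an SLC25A symbol 3 rose and 4 fell with it. Same-numbered samples had correlations of -0.11, -0.14 and -0.24 across genes after group means were removed, and no sample correlated best with its own number. With 3 samples per group these correlations depend on one another and cannot decide whether same-numbered samples were handled together. The 4 untested genes lay below the low-value filter.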

Other observations

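The table also lists 9 pseudogenes of SLC25A genes, by their symbols, at means of 0.143 to 1.38 RPM. The 4 pseudogenes of SLC25A5 summed to 2.06 RPM, against 292 RPM in KD and 374 RPM in SCR for SLC25A5 itself. The antisense transcript SLC25A5-AS1 averaged 3.12 RPM over the 6 samples and had a log2 fold change of 0.03, which did not pass. CRB3, which overlaps SLC25A23 on the opposite strand, rose by 0.51 on the log2 scale at a mean of 8.22 RPM, while SLC25A23 did not pass. LRIG1, opposite SLC25A26, rose by 0.24 at 43.8 RPM, and SLC25A26 did not pass. DBF4, opposite SLC25A40, had a log2 fold change of -0.09 and did not pass, while SLC25A40 rose. HAT1, opposite SLC25A12, averaged 82.2 RPM, against 15.8 RPM for SLC25A12, and had a log2 fold change of -0.23. METAP1D, also opposite SLC25A12, had -0.15 at 9.25 RPM. HAT1, METAP1D and SLC25A12 did not pass.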
